A study of Mus musculus with 8 samples.

Results

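Histone lysine demethylases remove methyl groups from the lysines of histone tails. They were followed here as 10 genes of the mouse, taken by name: Kdm1a, Kdm1b, Kdm2a, Kdm2b, Kdm4a, Kdm4b, Kdm4c, Kdm5a, Kdm5b and Kdm6b, of 24732 genes in the expression table. All 10 had entries in the table, and 9 passed the filter on low values (Kdm4b did not). The RNA came from C57BL/6 mouse embryos, in 8 Smart-seq libraries with 2 per group. The groups carry the labels 2C and 8C, taken here as embryos of 2 and 8 cells, and CX22 and CX45. CX22 and CX45 were not spelled out, and the labels gave no treatment, dose, time, sex or number of embryos and named no control. The series title concerned RNA polymerase I and chromatin architecture.

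Demethylases work by 2 chemistries. Kdm1a (LSD1) and Kdm1b (LSD2) are amine oxidases that use FAD and act on mono- and dimethylated lysine 4 of histone H3 (H3K4), a mark of promoters and enhancers. The other 8 carry a JmjC domain in their full-length proteins and need iron and 2-oxoglutarate. Kdm5a and Kdm5b act on trimethylated H3K4, Kdm2a and Kdm2b on H3K36, Kdm4a, Kdm4b and Kdm4c on H3K9 and H3K36, and Kdm6b on H3K27. In early mouse embryos Kdm1b is known as an oocyte gene needed to set DNA methylation imprints, and Kdm5a and Kdm5b for removing the broad H3K4 trimethylation inherited from the oocyte.

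Levels are in FPKM, that is, fragments divided by transcript length in kilobases and by the library's mapped fragments in units of 1e6, so they are per length. Steps among the low values correspond to 9.69 to 20.36 such units of fragments per library. The 2C libraries differed from each other by 1.32 times the chance median of a chi-square, against 38.9 to 139 times in the other groups. Beyond the 95% point of that chi-square lay 10.4% of genes in 2C, against 74.4% to 90.2% in the other groups. The 2C libraries were therefore counted as 1 sample, although they differed by more than sampling noise, and tests used 7 samples. Nothing in the labels says that replicates came from separate embryos, so the p-values reflect how much these samples vary and no more. In bulk RNA of this kind, fewer cells of a type and less RNA per cell cannot be told apart. Replicates parted most in CX22, where 331 genes exceeded 10 FPKM in a single library while the other listed 0, against 7, 15 and 46 such genes in 2C, 8C and CX45. A listed 0 can be a failed estimate, so zeros are given as listed. Summed levels of 6 marker genes of the 2-cell stage were 423 and 434 FPKM at 2C, 7.56 and 12.1 at 8C, 547 and 475 in CX22, then 116 and 539 in CX45. The gap within CX45 lay mostly in Tcstv3 (13.0 and 253.5 FPKM) and Zfp352 (20.9 and 178.8). Zscan4d and Tdpoz1 were also higher in CX45 replicate 2, Spz1 was close (64.7 and 63.2), and Usp17la was lower there (2.71 and 1.37). Summed levels of 10 oocyte genes ran from 2137 to 2973 FPKM in 2C and CX22, and from 48.8 to 232 FPKM in 8C and CX45. Oosp1 and Bmp15 made up most of the oocyte sum in 2C and CX22, and the range of Zp3 there (14.6 to 41.3 FPKM) overlapped that in 8C and CX45 (13.3 to 54.3 FPKM). The ranges of Zp1 and Zar1 overlapped as well, through CX22 replicate 1 (0.213 and 0 FPKM). The 10 markers of the 8-cell stage to inner cell mass, with Cdx2 at 0 in every library, ran from 78.2 to 100.2 FPKM in 2C and CX22, and from 915 to 1631 FPKM in 8C and CX45. Dppa2 (266 to 831 FPKM in 8C and CX45) and Dppa4 (596 to 722) made up most of that sum, while Sox2 was lower at 8C (0 and 0.01999 FPKM) than at 2C (4.55 and 3.95). The ranges of Pou5f1, Klf4, Esrrb and Tfcp2l1 in 2C and CX22 overlapped those in 8C and CX45. For Pou5f1 the overlap lay in CX45 (0 and 2.16 FPKM), not in 8C (7.78 and 16.2). The 8 cumulus and granulosa markers summed to 7.97 and 9.07 FPKM at 2C and to 5.15 and 0 in CX22. In 8C and CX45 they summed to at most 0.998 FPKM, with Ptx3, Amh and Inha at 0 in all libraries. The 6 sperm markers summed to 19.6 and 18.7 FPKM at 2C and to 42.9 and 33.1 in CX22. In 8C they summed to 0 in both libraries and in CX45 to 0 and 4.91, with Tnp2 at 0 in all libraries. The 6 blood markers summed to 110 and 111 FPKM at 2C, 12 and 32.01 at 8C, 33.8 and 83.5 in CX22, then 302 and 360 in CX45. Hba-a1 was most of that sum in every library, with Hbb-bs at 0 in every library. The part of the stage, oocyte, cumulus, sperm and blood signals in the differences below was not tested.

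In sum, the 10 genes gave 96.6 and 96.8 FPKM at 2C, 123 and 116 at 8C, 85.7 and 122 in CX22, then 160 and 179.7 in CX45. Both CX45 libraries stood above the other 6. Which genes made up the sum differed between groups. The amine oxidases Kdm1a and Kdm1b held 57.7% and 56.6% of the sum at 2C, 23% and 20.02% at 8C, 27.8% and 54.7% in CX22, then 25.3% and 18.7% in CX45. The JmjC H3K4 demethylases Kdm5a and Kdm5b held 21.3% and 21.9% at 2C, 46% and 52.2% at 8C, 36.1% and 19.9% in CX22, then 44.7% and 52.6% in CX45. Kdm1b was the most abundant member in both 2C libraries, and Kdm5b in both 8C and both CX45 libraries. In CX22 the first place went to Kdm5b in replicate 1 and to Kdm1b in replicate 2. No test was made of these shares.

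**Figure D1:**
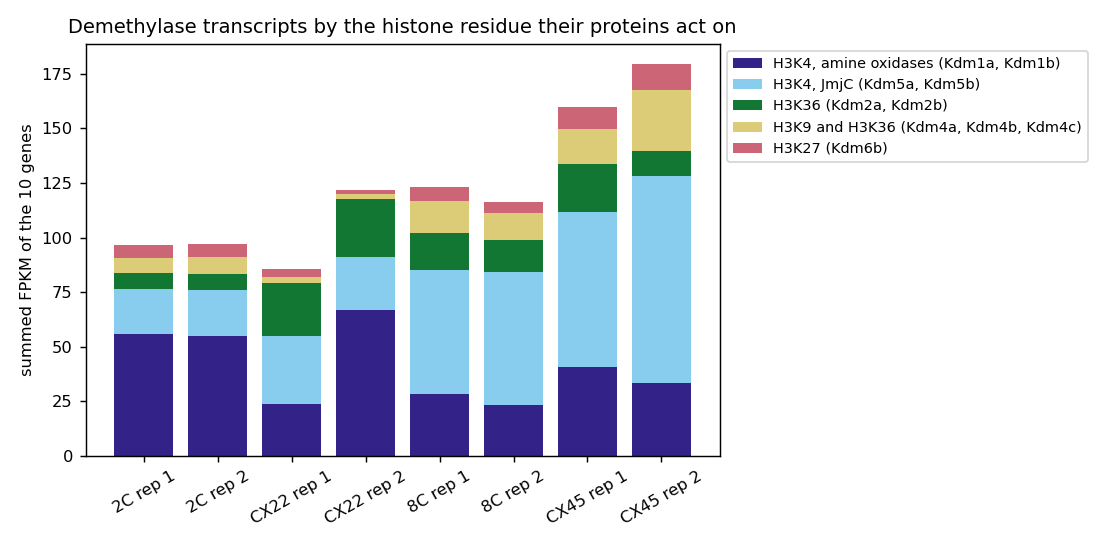
Summed FPKM of the 10 demethylase genes (y axis, linear) in each of the 8 libraries (x axis), split by the histone residue on which the full-length proteins act. Most of the H3K36 part is Kdm2b, listed nearly all as a short form known to lack the JmjC domain. The amine oxidases held over 50% of the bar in both 2C libraries and in CX22 replicate 2, and at most 27.8% in the other 5.

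Limma, fitted across 11832 genes, called a gene whose adjusted p was under 0.05 and whose log2 fold change was 1 or more in size. Between 2C and 8C, 1 of the 9 tested members was called, Kdm5b, which rose. In the same comparison 37.0% of all genes tested were called, 16.4% higher and 20.7% lower, and no more was read from the single call. The median log2 fold change was 0.61 over the members and -0.03 over all genes. Between CX22 and 2C none of the 9 was called, against 3.85% of all genes (0.600% higher and 3.25% lower), with 1 member higher (Kdm2b) and 0 lower when p was left unadjusted (under 0.05) by limma (medians -0.32 and -0.07). Between CX45 and 8C limma again called 0 of 9, against 0.659% of all genes (0.456% higher and 0.203% lower), with 0 higher and 0 lower by unadjusted p (medians 0.52 and 0.31). The share of all genes passing at unadjusted p was not taken in any comparison, so no more was read from such counts. Between CX45 and CX22, 5 of 9 rose in CX45 and 0 fell, against 36.6% of all genes called, 23.1% higher and 13.5% lower (medians 1.39 and 0.47). The 5 were Kdm1a, Kdm4c, Kdm5a, Kdm5b and Kdm6b. The 4 comparisons share samples, since each group enters 2 of them, and their values are not independent.

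The counts rested on few libraries. Leaving out either 8C library took the 5 calls between CX45 and CX22 to 0, although 8C is in neither group: the 4 groups share 1 estimate of the spread in the fit. Without CX45 replicate 1 only Kdm5b stayed called there, and without CX45 replicate 2 only Kdm1a of the 5, joined by Kdm1b. Between 8C and 2C the count was 0 without either 8C library, 2 without either CX22 library and 3 without either CX45 library. Whether the difference between CX45 and 8C itself differed from that between CX22 and 2C was tested too, a test added after the data were seen. None of the 9 was called, against 3.54% of all genes (3.14% higher and 0.397% lower), with the smallest adjusted p for Kdm2b (0.171) and 1 higher and 1 lower when p was left unadjusted (Kdm6b and Kdm2b).

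**Figure D2:**
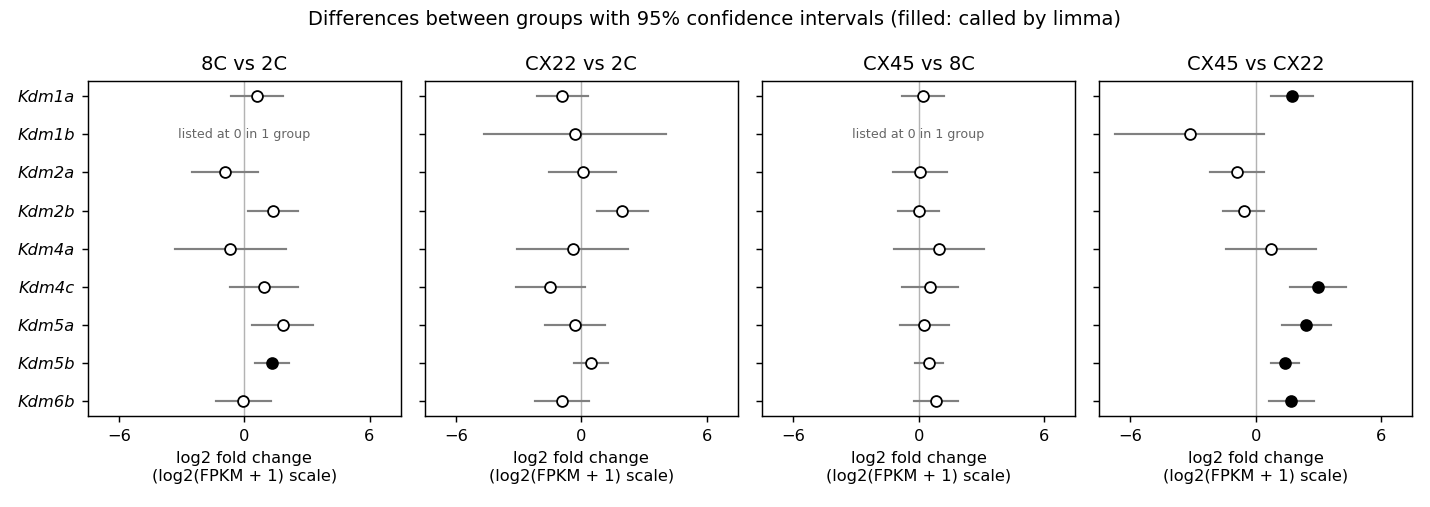
Log2 fold changes of the 9 tested demethylase genes (rows) in the 4 comparisons (panels), on the log2(FPKM + 1) scale, with 95% confidence intervals from limma. Filled points were called, and Kdm1b has no point where 8C was listed at 0. The filled points are Kdm5b in 8C against 2C and Kdm1a, Kdm4c, Kdm5a, Kdm5b and Kdm6b in CX45 against CX22.

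Kdm5b, a demethylase of H3K4 trimethylation (chromosome 1, 136456755 to 136529455 in mm9), stood at 18.2 and 18.8 FPKM at 2C, 46 and 49.3 at 8C, 28.2 and 23.2 in CX22, then 59.2 and 79.2 in CX45. The 4 groups did not overlap and ran in the order 2C, CX22, 8C, CX45. Kdm5b rose from 2C to 8C by 1.32 ± 0.31 (log2 fold change ± SE, adjusted p = 0.0316), and was higher in CX45 than in CX22 by 1.39 ± 0.25 (adjusted p = 0.0163). The differences between the neighbours 2C and CX22 (0.44 ± 0.31, adjusted p = 0.644) and 8C and CX45 (0.52 ± 0.25, adjusted p = 0.37) did not pass. The call between 2C and 8C was lost without 8C replicate 1 or 2 (adjusted p = 0.114 and 0.133). Kdm5b lay above 75.1% of the genes with a value above 0 in 2C replicate 1 and above 91.1% in CX45 replicate 2. In fragments the range was from about 1893 to 8857 per library.

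Kdm5a, its close relative and an H3K4 demethylase first described as a partner of the retinoblastoma protein (chromosome 6, 120314117 to 120394592), stood at 2.37 and 2.41 FPKM at 2C, 10.7 and 11.5 at 8C, 2.79 and 0.976 in CX22, then 12.2 and 15.4 in CX45. Every 8C and CX45 library lay above every 2C and CX22 library. The difference between CX45 and CX22 passed (2.43 ± 0.45, adjusted p = 0.0171). That between 8C and 2C had a log2 fold change of 1.84 ± 0.56 and missed the threshold (adjusted p = 0.0585), which it passed without either CX22 library (0.0199 and 0.0187), with quantile normalization (0.0343) and with separate 2C libraries (0.00803), over a range of 0.00803 to 0.206 across alternatives. Kdm5b made up 88.5% and 88.7% of the summed level of the pair at 2C, 81% and 81.1% at 8C, 91% and 96% in CX22, then 82.9% and 83.8% in CX45. The deposited locus of Kdm5a overlaps that of Ccdc77 by 271 bases, and its part in the Kdm5a values was not tested. Ccdc77 stood at 10.3 FPKM in both 2C libraries, 7.78 and 8.55 at 8C, 22.7 and 5.84 in CX22, then 11.8 and 14.9 in CX45.

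Kdm1a, the catalytic subunit of the CoREST complex (chromosome 4, 136106448 to 136158638), stood at 16.4 and 16.6 FPKM at 2C, 28.4 and 23.3 at 8C, 7.36 and 9.26 in CX22, then 40.5 and 21.98 in CX45. Both CX22 libraries lay below all others, and the 8C and CX45 libraries overlapped. Kdm1a was higher in CX45 than in CX22 by 1.74 ± 0.38 (adjusted p = 0.0257). It lost that call under median-ratio scaling (0.0655), with the highest entry per gene (0.0657), without either CX22 library (0.0788 and 0.0589), without either 8C library (0.0732 and 0.0727) and without CX45 replicate 1 (0.0771). The differences of CX22 from 2C (-0.92 ± 0.47, adjusted p = 0.469) and of 8C from 2C (0.61 ± 0.47, adjusted p = 0.349) did not pass. The split among its 3 transcripts moved between replicates: NM_001347221 held 47.1% of Kdm1a in 8C replicate 1 and 0% in 8C replicate 2, so the sum over transcripts was used.

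Kdm1b, the second amine oxidase and the one known from growing oocytes (chromosome 13, 47138868 to 47180648), was listed at 39.4 and 38.2 FPKM in 2C, at 0 in both 8C libraries, at 16.5 and 57.4 in CX22, and at 0 and 11.6 in CX45. Its 2C values amount to about 2342 and 2426 fragments, and its CX45 value to about 741. All 2C and CX22 libraries lay above all 8C and CX45 libraries. The difference between 8C and 2C missed the threshold (adjusted p = 0.0637), and no fold is given because 8C was listed at 0. It passed without either CX45 library (0.0321 and 0.0331), under quantile normalization (0.037), under median-ratio scaling (0.0483) and with separate 2C libraries (0.00927), over a range of 0.00672 to 0.198 across alternatives. The difference between CX45 and CX22 did not pass either (-3.17 ± 1.36, adjusted p = 0.136). With CX45 replicate 1 listed at 0, that log2 fold change rests on single libraries: it was -5.00 without CX45 replicate 2 (adjusted p = 0.048), -1.35 without CX45 replicate 1 (0.363), and -4.04 and -2.30 without CX22 replicate 1 and 2 (0.171 and 0.384). Its locus overlaps that of Dek by 513 bases in the deposited table. Dek was at 266 and 253 FPKM at 2C, 74 and 68.1 at 8C, 272 and 338 in CX22, then 229 and 136 in CX45, and the part of that overlap in the Kdm1b values was not tested.

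**Figure D3:**
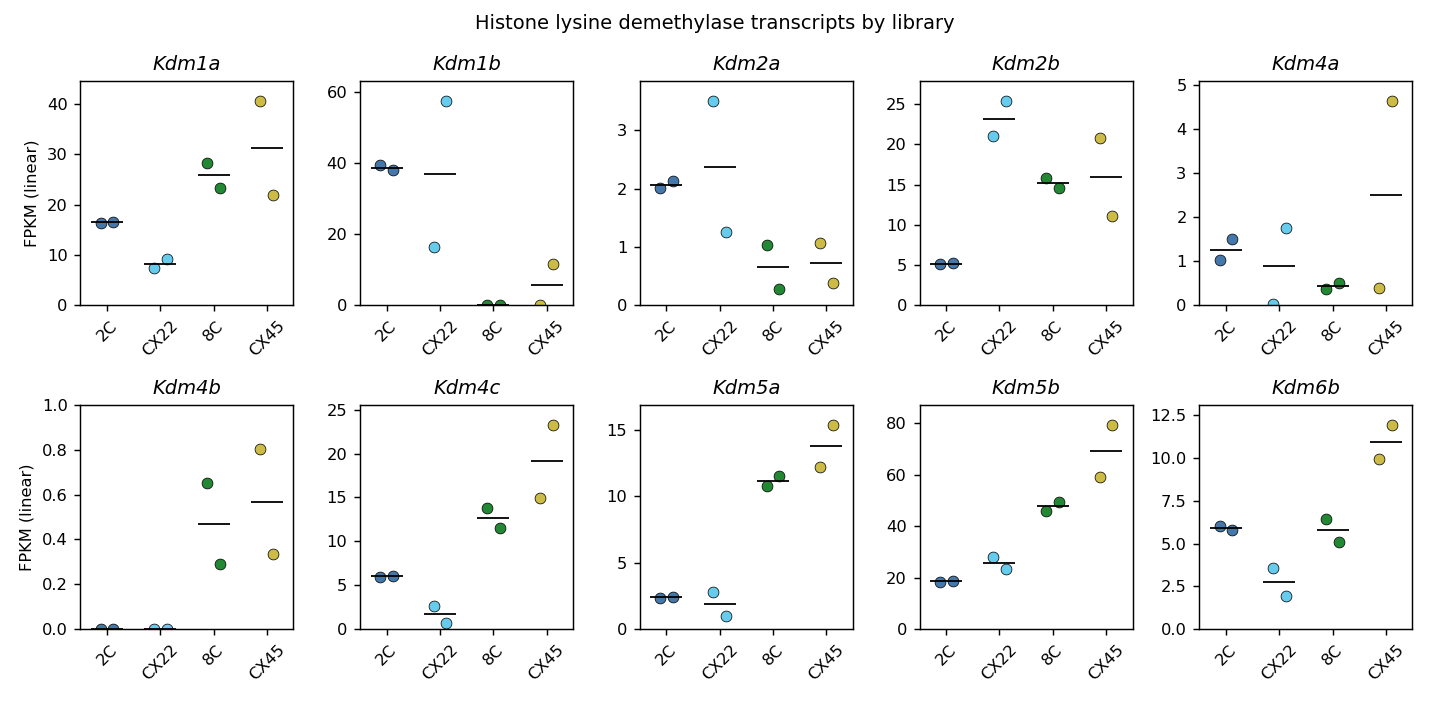
FPKM (y axis, linear and scaled per gene) of the 10 demethylase genes in the 8 libraries, by group (x axis), each point 1 library and each bar the mean of 2. Kdm5b, Kdm5a and Kdm4c were high in 8C and CX45, Kdm1b was high in 2C and CX22, and Kdm2b was lowest in 2C.

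Kdm2b, an H3K36 demethylase that also brings a variant Polycomb complex (PRC1.1) to unmethylated CpG islands through its CXXC zinc finger, stood at 5.15 and 5.24 FPKM at 2C, 15.8 and 14.6 at 8C, 21.1 and 25.3 in CX22, then 20.8 and 11.1 in CX45. It was the member for which CX22 stood farthest above 2C, and the 2C libraries lay below the other 6. The differences of CX22 from 2C (1.96 ± 0.46, adjusted p = 0.119) and of 8C from 2C (1.39 ± 0.46, adjusted p = 0.074) both missed the threshold. With the 2C libraries as separate samples both passed (adjusted p = 0.0141 and 0.0133). The difference of 8C from 2C also passed under quantile normalization (0.0471) and without either CX45 library (0.0495 and 0.0471), over a range of 0.0133 to 0.225 across alternatives. CX45 and 8C differed by 0.01 ± 0.38, with a 95% interval of -0.98 to 0.99.

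The deposited table split Kdm2b between 2 transcripts, and nearly all of it lay in the shorter one. NM_013910 (chromosome 5, 123320685 to 123350359 in mm9) held 100% of the Kdm2b FPKM in 7 libraries and 88.7% in 8C replicate 2. The longer NM_001003953 (123320681 to 123439108) was listed at 1.65 FPKM in 8C replicate 2 and at 0 in the other 7 libraries. In the GENCODE M21 annotation of GRCm38 the paired short transcript starts 88744 bases downstream of the long one. It codes for 776 amino acids in 12 coding exons, against 1309 in 23 exons, and 12 coding exons of the long form lie upstream of its start. The short protein is known to lack the JmjC domain and to keep the CXXC zinc finger, the F-box and the leucine-rich repeats. How the authors' quantification divides fragments between overlapping transcripts can change such a split. The 250 bases before the start of each form are shown, and their part in the split was not tested. They come from RefSeq (GRCm38.p6), minus strand, 5′ to 3′, and each CG dinucleotide is in capitals. They lie at chr5:122900351-122900600 for the short form and chr5:122989100-122989349 for the long form.
Kdm2b short: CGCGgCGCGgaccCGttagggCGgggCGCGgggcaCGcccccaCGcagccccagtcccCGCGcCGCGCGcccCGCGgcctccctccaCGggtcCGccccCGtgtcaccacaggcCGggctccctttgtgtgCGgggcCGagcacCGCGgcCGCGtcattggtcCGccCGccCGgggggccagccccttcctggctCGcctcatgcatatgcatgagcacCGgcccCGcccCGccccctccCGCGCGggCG
Kdm2b long: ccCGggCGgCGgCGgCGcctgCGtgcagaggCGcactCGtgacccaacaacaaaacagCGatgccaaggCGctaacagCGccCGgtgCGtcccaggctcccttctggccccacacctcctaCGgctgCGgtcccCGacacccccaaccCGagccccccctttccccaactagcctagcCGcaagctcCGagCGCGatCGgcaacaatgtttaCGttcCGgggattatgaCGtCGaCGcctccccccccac
The window of the short form held 38 CG dinucleotides, a number reached by 1.88% of all 32851 windows of that length, and that of the long form 27, reached by 8.56%, against a median of 6 over all windows. Other Kdm2b windows, before other annotated starts, held 12 and 36, reached by 33.5% and 2.58% of all windows. CG reads the same on both strands. Windows were found for 6 of the 10 genes: the highest counts in the other 5 were 21 (Kdm1a), 22 (Kdm1b), 12 (Kdm4a), 19 (Kdm4c) and 13 (Kdm5b).

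**Figure D4:**
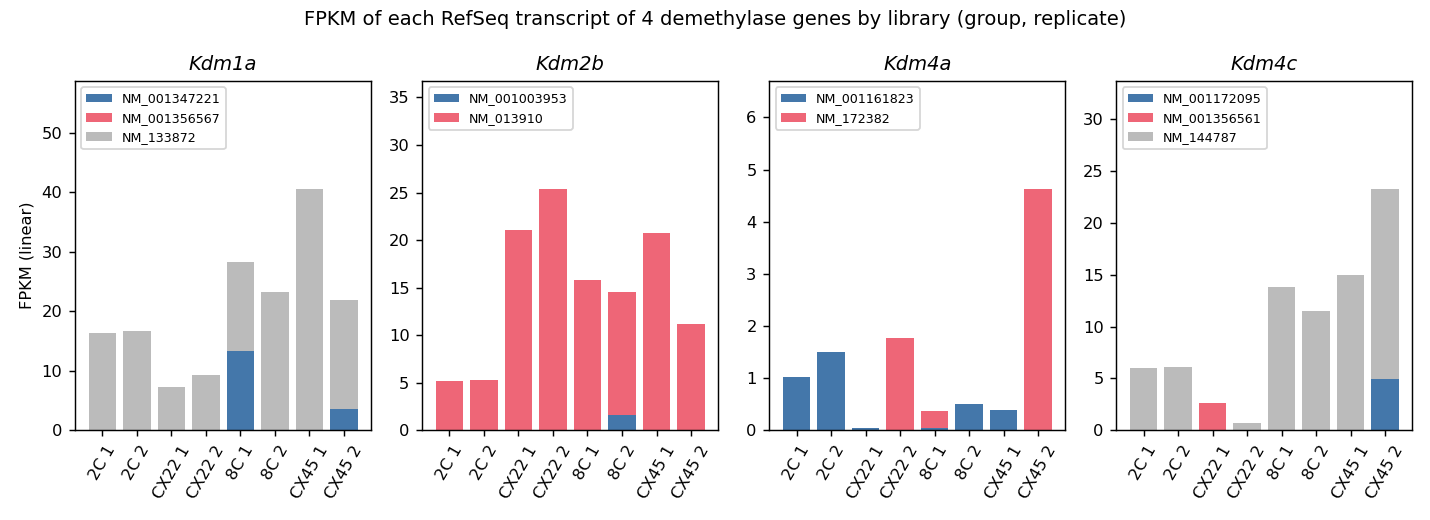
FPKM (y axis, linear) of each RefSeq transcript of Kdm1a, Kdm2b, Kdm4a and Kdm4c in the 8 libraries (x axis), stacked per gene. For Kdm2b the short NM_013910 fills the bar in 7 of 8 libraries, and for Kdm1a, Kdm4a and Kdm4c the split differs between replicates of a group.

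Kdm2a, the paralog of Kdm2b that likewise demethylates H3K36 (chromosome 19, 4316147 to 4397077), stood at 2 and 2.13 FPKM at 2C, 1.03 and 0.278 at 8C, 3.49 and 1.26 in CX22, then 1.07 and 0.39 in CX45. Both 8C and both CX45 libraries lay below all 2C and CX22 libraries. No comparison passed, with log2 fold changes of -0.93 ± 0.61 between 8C and 2C (adjusted p = 0.279) and -0.91 ± 0.5 between CX45 and CX22 (adjusted p = 0.221). Of the pair, Kdm2b held 72% and 71.1% in 2C and at least 85.8% in every other library. Nearly all of that Kdm2b level was listed in the short form known to lack the JmjC domain.

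Kdm4c, which demethylates H3K9 trimethylation (chromosome 4, 73888401 to 74051768), stood at 6 and 6.09 FPKM at 2C, 13.8 and 11.5 at 8C, 2.67 and 0.718 in CX22, then 15 and 23.2 in CX45. The groups did not overlap, with CX22 lowest and CX45 highest. Among the members it had the largest rise from CX22 to CX45 (2.97 ± 0.51, adjusted p = 0.0139). CX22 against 2C (-1.49 ± 0.63, adjusted p = 0.36) and 8C against 2C (0.95 ± 0.63, adjusted p = 0.282) did not pass. Without CX45 replicate 1 or 2 the adjusted p between CX45 and CX22 was 0.0538 and 0.0745, and for Kdm5a 0.0683 and 0.0837. The CX22 value of replicate 1 lay wholly in the transcript NM_001356561, which was listed at 0 in the other 7 libraries.

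Kdm4a (JMJD2A), which acts on trimethylated H3K9 and H3K36 (chromosome 4, 117809609 to 117852648), was low, at 1.03 and 1.5 FPKM at 2C, 0.365 and 0.502 at 8C, 0.0443 and 1.76 in CX22, then 0.393 and 4.62 in CX45. In CX22 and CX45 the replicates differed by more than the groups, and no comparison passed (adjusted p = 0.532 to 0.949). Kdm4b (chromosome 17, 56465473 to 56543197) was listed at 0 in both 2C and both CX22 libraries, at 0.65 and 0.291 FPKM in 8C, and at 0.802 and 0.334 in CX45. It reached 1 FPKM in no library and was tested only without the filter on low values, where it was not called (adjusted p = 0.216, 1, 0.925 and 0.111 in 8C against 2C, CX22 against 2C, CX45 against 8C and CX45 against CX22).

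Kdm6b (JMJD3), which removes the Polycomb mark H3K27 trimethylation (chromosome 11, 69212016 to 69229696), stood at 6.06 and 5.83 FPKM at 2C, 6.47 and 5.08 at 8C, 3.6 and 1.92 in CX22, then 9.98 and 11.9 in CX45. The stages 2C and 8C overlapped (-0.04 ± 0.5, 95% interval -1.35 to 1.26). CX22 lay below both and CX45 above both. Kdm6b was higher in CX45 than in CX22 by 1.70 ± 0.41 (adjusted p = 0.0319), and neither CX45 against 8C (0.82 ± 0.41, adjusted p = 0.371) nor CX22 against 2C (-0.92 ± 0.5, adjusted p = 0.501) passed. The call was lost without CX45 replicate 1 or 2 (0.0948 and 0.122), under quantile normalization (adjusted p = 0.061) and median-ratio scaling (0.0719).

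Scaling bore on CX45. The median over all genes was 0.31 above 8C and 0.47 above CX22, and quantile normalization brought it to 0 and 0.06. Quantile normalization kept 4 of the 5 member calls between CX45 and CX22 (all but Kdm6b), and median-ratio scaling kept Kdm4c and Kdm5a. Of all genes called in that comparison 63.1% were higher in CX45, against 49.2% with quantile normalization and 50.2% with median-ratio scaling.

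Other JmjC genes moved in both directions between the stages. Of 12 tested of 16, 1 rose from 2C to 8C (Jmjd6) and 3 fell (Kdm7a, Kdm6a and Phf8), with a median of 0.28. In that comparison 37.0% of all genes were called. Kdm6a (UTX), the X-linked relative of Kdm6b, fell from 46.98 and 45.7 FPKM to 10.9 and 8.12 (-2.18 ± 0.31, adjusted p = 0.00858). Kdm7a, a demethylase of H3K9 and H3K27, fell from 55.02 and 55.9 FPKM to 5.89 and 6.21 (-3.00 ± 0.33, adjusted p = 0.00486). Kdm6b made up 11.4% and 11.3% of the summed level of Kdm6a and Kdm6b at 2C, 37.2% and 38.5% at 8C, 6.87% and 3.66% in CX22, then 37.9% and 42.2% in CX45. The share was thus higher in the 4 libraries of 8C and CX45, where Kdm6a was low. In CX45 Kdm6b itself was also highest (9.98 and 11.9 FPKM). Between CX45 and CX22, 5 of the 12 rose (Uty, Riox1, Kdm3a, Kdm3b and Jmjd6) and 2 fell (Kdm7a and Kdm6a), with a median of 0.70, against 36.6% of all genes called. Riox1, a JmjC hydroxylase of the nucleolus, went from 0 and 0.0352 FPKM to 13.3 and 9.77. Uty was listed at 0 in both CX22 libraries and at 1.35 and 1.31 FPKM in CX45. None of the 12 was called by limma in CX22 against 2C or in CX45 against 8C, against 3.85% and 0.659% of all genes. By unadjusted limma p, 0 were higher and 1 lower in the former, and 4 higher and 0 lower in the latter. The median over all genes was itself 0.31 higher in CX45 than in 8C. Without the share of all genes at unadjusted p, no direction was read from these counts.

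The remaining lists held partner, methyltransferase and metabolism genes. Of all genes tested, 37.0% were called in 8C against 2C and 36.6% in CX45 against CX22. The shares were 3.85% in CX22 against 2C and 0.659% in CX45 against 8C. No list was tested against these shares, and the lists are short, so no more was read from the counts. Of 12 tested partners of the amine oxidases, 1 rose from 2C to 8C (Hdac1, the deacetylase of the CoREST complex, from 3.84 and 3.87 FPKM to 30.5 and 58.5) and 2 rose from CX22 to CX45 (Hdac1 and Gfi1b, medians 0.30 and 0.98). Of 8 tested PRC1.1 partners of Kdm2b, limma called 0 from 2C to 8C (1 higher and 0 lower when p was left unadjusted) and 2 rose from CX22 to CX45 (Skp1 and Pcgf1, medians -0.41 and 0.61). The methyltransferases that set the marks were called in both directions. From 2C to 8C, H3K4 methyltransferase genes gave 1 risen and 2 fallen of 11 (Wdr5, and Dpy30 and Kmt2d, median 0.58). Dpy30, a shared subunit of the H3K4 methyltransferase complexes, fell from 1837 and 1724 FPKM to 257 and 299. H3K9 enzymes gave 1 risen and 3 fallen of 7 (Ehmt2, and Suv39h2, Setdb1 and Setdb2, median -1.06). H3K27 genes gave 2 fallen of 4 (Suz12 and Ezh2, median -1.69) and H3K36 enzymes 2 fallen of 7 (Nsd2 and Nsd1, median -0.92). Of these, Ezh2 (adjusted p = 0.0406) and Nsd1 (0.0469) each lost the call in 8 of 15 alternatives, among them no filter (0.063 and 0.0609) and the omission of either 8C or either CX22 library, and Nsd2 in 6. Suz12 kept it in all 15. From CX22 to CX45 the counts were 1 risen (Cxxc1) and 2 fallen (Dpy30 and Kmt2d) for H3K4, 1 (Ehmt1) and 1 (Suv39h2) for H3K9, 1 (Ezh1) and 2 (Suz12 and Ezh2) for H3K27, and 1 (Setd2) and 0 for H3K36, with medians of 0.80, 0.14, -0.54 and -0.32. In that comparison Setd2 lost the call in 10 of 15 alternatives, Suv39h2 and Pcgf1 in 8 each, and Ehmt1 and Gfi1b in 7 each. Genes of 2-oxoglutarate and succinate metabolism, which make the cofactor and an inhibitor of JmjC enzymes, gave 7 risen and 3 fallen of 20 from 2C to 8C (median 1.12) and 7 risen and 2 fallen from CX22 to CX45 (median 1.27). Idh3b, a subunit of an enzyme that makes 2-oxoglutarate, was listed at 0 in both 2C and both CX22 libraries, at 44.04 and 92.5 FPKM in 8C, and at 24.1 and 43.9 in CX45. In the 7 lists other than the JmjC genes, the calls in CX22 against 2C and in CX45 against 8C were Fh1, listed at 0 in both CX22 libraries and at 24.1 and 21.9 FPKM in 2C, and Setdb1, an H3K9 methyltransferase listed at 0 in both 8C libraries and at 10.1 and 16.1 FPKM in CX45. The Setdb1 call (adjusted p = 0.0476) was lost in 10 of 15 alternatives: without the filter, with quantile or median-ratio scaling, with the highest entry per gene, and without any 8C, CX22 or CX45 library (up to 0.3). Fh1 lost its call in 4 of 15.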

How the data were processed

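Gene expression was measured in 8 libraries of mouse embryos, made per the labels' protocols by Smart-seq with Trizol-extracted RNA, Nextera XT and a BGISEQ500. The deposited values are FPKM per RefSeq transcript. The submitters' processing notes list HISAT2 (version given as 4.8.2), Cufflinks 2.2.1 and mm9, and strandedness is not given in the sources used here. Rows were matched to genes through RefSeq (41685 of 41876; the 191 others held 0.0650% to 0.253% of summed FPKM and were left out) and summed to 24732 genes. Limma 3.58.1 (R 4.3.3) was fitted with a mean trend to log2(FPKM + 1), which understates changes of low genes, in the 11832 genes that reached 1 FPKM in 2 or more libraries. All 4 groups entered 1 fit with 3 residual degrees of freedom, two-sided, with Benjamini-Hochberg adjustment over all genes. Implied depths rest on 65.9% to 76.3% of low values lying within 0.05 of whole fragments. At these depths 3 fragments on a 2 kb transcript correspond to 0.0737 to 0.155 FPKM, counting error only, in amplified cDNA without molecular identifiers. The authors' column values were used as deposited.

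All 10 members are named, and from each list of related genes the 2 called genes with the smallest p in each comparison, the others by symbol only. The members and lists were chosen with earlier results of these data known. Tested on simulated data over 11832 genes, the fit recovered 46% of genes changed by 1.5 (log2) and 79% of those changed by 3 between 8C and 2C, with 48 of 2000 equal genes called. Between CX45 and CX22 it recovered 58% and 88%, with 29 of 2000 equal genes called. In the simulation the samples of each gene were drawn with the same normal spread in every group, and changed genes came from those above a minimum level. The simulated 2C libraries were set equal to each other and entered as 1 sample. Replicates of the real groups differed unequally, most in CX22, so these rates need not hold for the real data. Alternatives were another pseudocount (0.1), no filter, quantile and median-ratio scaling, separate 2C libraries with and without a replicate block, the highest entry per gene, and leaving out each library.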

Additional observations from a re-analysis of the deposited data

How the results depend on the processing

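Of 540 member values under the alternatives, 468 kept direction and call, 27 lost a call, 20 gained one and 25 changed sign, 0 of these among called values. The cause of the changes was not tested. Members called in 8C against 2C numbered 4 with quantile normalization, 2 with median-ratio scaling, 4 with separate 2C libraries, 4 with the replicate block, and 0 to 3 leaving out single libraries. In CX22 against 2C the count was 1 with separate 2C libraries and 1 with the block (Kdm2b, adjusted p = 0.0288), and 0 to 0 leaving out libraries. In CX45 against 8C it was 0 in all settings. In CX45 against CX22 it was 2 with median-ratio scaling, 6 with the block (Kdm1b added, 0.0443), and 0 to 5 leaving out libraries.

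All genes called in 8C against 2C numbered 4382, or 6679 with separate 2C libraries, 6614 with the block, and 1411 to 5606 leaving out libraries. In CX22 against 2C they numbered 456, or 241 with quantile normalization, 1606 with separate 2C libraries, 1335 with the block, and 199 to 1103 leaving out libraries. In CX45 against 8C they numbered 78, or 183 with a pseudocount of 0.1, 0 without the filter, 0 with quantile and 0 with median-ratio scaling, 1037 with separate 2C libraries, 707 with the block, and 0 to 78 leaving out libraries. In CX45 against CX22 they numbered 4332, and 2442 to 4609 leaving out libraries. Deviations of same-numbered replicates correlated at -0.0007 to 0.108, so the numbers were not taken as pairs.

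Log2 fold changes that changed sign, none of them called, were these. In 8C against 2C, Kdm4a was 0.20 with the highest entry, and Kdm6b 0.40 with quantile normalization and -0.19 to 0.11 leaving out libraries. In CX22 against 2C, leaving out libraries gave -1.19 to 0.55 (Kdm1b), -0.44 to 0.55 (Kdm2a), -1.12 to 0.29 (Kdm4a) and -0.78 to 0.16 (Kdm5a). Quantile normalization gave 0.27 (Kdm4a) and 0.064 (Kdm5a), and the highest entry 0.73 (Kdm4a). In CX45 against 8C, quantile and median-ratio scaling gave -0.10 and -0.26 (Kdm1a), -0.40 and -0.10 (Kdm2a), -0.37 and -0.45 (Kdm2b), and -0.13 and -0.17 (Kdm5a). Leaving out libraries gave -0.22 to 0.64 (Kdm1a), -0.26 to 0.41 (Kdm2a), -0.42 to 0.43 (Kdm2b) and -0.040 to 1.97 (Kdm4a), and for Kdm4a in CX45 against CX22 -0.29 to 1.73. Of 450 values of named list genes, 342 kept direction and call and 108 lost the call.

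With 1 or 2 samples a group and 3 residual degrees of freedom, a missed threshold does not show that groups were alike. Kdm4a, at about 2 fragments in CX22 replicate 1, was near the limit of the depth.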
